A study of Mus musculus with 6 samples.

Results

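The genes described here are 36 enzymes, regulators and transporters of sterol and fatty acid metabolism, set by name from the pathway. The list was drawn up with earlier results of these data known. Each of the 36 symbols matched exactly 1 of the 24376 Ensembl gene IDs in the expression tables. They were placed by their role into 7 genes of the mevalonate steps, 11 of the squalene and sterol steps, 6 regulators and sterol carriers, 9 genes of fatty acid synthesis and desaturation, and 3 of lipid efflux and transfer. RNA with a poly(A) tail was sequenced from mouse blood progenitors of C57BL/6 fetal liver at E14.5. The knockdown cultures carried a retrovirus with an shRNA (short hairpin RNA, which lowers the transcripts it pairs with) against Samd14, in 3 libraries called shSamd14. The other 3 libraries, called control, came from cultures that received a control shRNA by the same route, whose target the labels do not name. All cultures were infected straight after progenitor isolation and grown ex vivo for 3 days, and 200000 cells without surface CD71 and Ter119, markers of maturing red cells, were lysed per library. Both groups therefore had been through retroviral infection, culture and the same sort, and the results describe the CD71-negative, Ter119-negative cells only. Whether replicates were separate litters or cultures is not in the labels, so the p-values reflect the spread between these libraries, which may be technical.

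Cells build cholesterol from acetyl-CoA through mevalonate, isoprenoids, squalene and lanosterol, and the isoprenoids also feed protein prenylation. The transcription factors SREBP1 and SREBP2, made from Srebf1 and Srebf2, switch on these enzymes and those of fatty acid synthesis. The carrier protein SCAP takes SREBP from the endoplasmic reticulum to the Golgi when sterols are scarce, where proteases release the active factor. INSIG proteins hold SCAP back when sterols are plentiful, and Insig1 is itself an SREBP target. Sterol surplus acts through the LXR receptors, which raise the exporters Abca1 and Abcg1. Dividing blood progenitors need both sterols and fatty acids for new membranes.

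The libraries held 20584169 to 26462797 estimated reads (expected counts). Samd14, the target, was at 38.8 to 41.9 counts per 1000000 (CPM, scaled with TMM factors) in shSamd14 libraries and at 82.0 to 83.8 CPM in control libraries, which is -1.05 on the log2 scale (SE 0.06, edgeR adjusted p = 4.69e-07). The 8 progenitor markers, with Kit, Myb and Gata2 among them, were present in all libraries. They summed to 1134 to 1173 CPM in shSamd14 and 1189 to 1334 CPM in control libraries. Kit, the largest of them, lay below control, at 422 to 474 CPM in shSamd14 and 495 to 656 CPM in control libraries. Gata2 lay above control, at 83.3 to 87.7 CPM in shSamd14 and 64.9 to 80.2 CPM in control libraries. The median log2 fold change of the 8 was -0.01, with 5 negative, and none passed. Transcripts of Tfrc, the gene of CD71, were present in spite of the sort, at 782 to 876 CPM in shSamd14 and 869 to 979 CPM in control libraries. Hepatocyte markers were at or near 0 apart from Apoa1 (19.3 to 26.4 CPM in shSamd14 and 23.8 to 46.2 CPM in control libraries): Alb did not exceed 1.72 CPM in any library and Serpina1a was at 0 in all 6. In such bulk samples, fewer cells of a type and less RNA per cell cannot be told apart.

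Transcript levels, in transcripts per 1000000 (TPM, which corrects for gene length), spanned 0.21 to 456 TPM among the members, as means over all libraries. By the mean over all libraries the farnesyl diphosphate synthase gene Fdps was the most abundant, at 456 TPM, with 439.8 ± 22.0 TPM in shSamd14 and 472 ± 18.2 TPM in control libraries (SD, n = 3 each). The desaturase gene Scd2 (448 ± 29.9 TPM in shSamd14 and 450.3 ± 45.7 TPM in control libraries) and Idi1, the isopentenyl diphosphate isomerase gene (385 ± 46.6 TPM in shSamd14 and 414 ± 40.2 TPM in control libraries), came next, and these 3 levels overlapped between neighbours within each group. Scd2 was far above its paralog Scd1, which averaged 33.0 TPM over all libraries. The 18 enzymes of the mevalonate, squalene and sterol steps lay between 11.5 TPM (Hsd17b7) and 456 TPM (Fdps) over all libraries. Their summed level was 1973, 2034 and 1802 TPM in shSamd14 replicates 1, 2 and 3, against 2184, 2014 and 2048 TPM in control replicates 1, 2 and 3. The lowest of these 6 sums was that of shSamd14 replicate 3, while those of shSamd14 replicates 1 and 2 lay close to the lower 2 control sums. The fatty acid genes summed to 954, 1021 and 1019.9 TPM in shSamd14 and to 1099.9, 981 and 985 TPM in control libraries, with overlap between the groups. The lipid exporter gene Abca1 was the least abundant member, at 0.23 ± 0.0964 TPM in shSamd14 and 0.19 ± 0.052 TPM in control libraries. Its sister exporter Abcg1 stood at 18.5 ± 1.89 TPM in shSamd14 and 12.1 ± 3.24 TPM in control libraries.

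**Figure D1:**
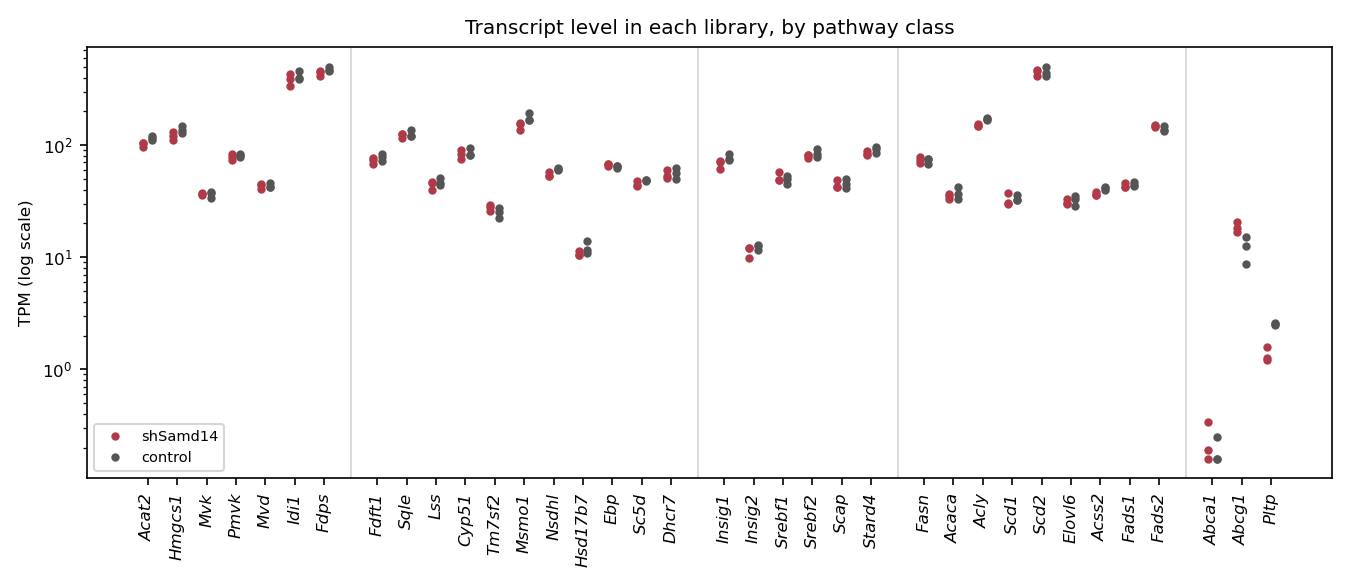
Level of each of the 36 genes in TPM on a log axis, with 1 point per library, shSamd14 on the left and control on the right of each position, and grey lines between the 5 classes. Fdps, Scd2 and Idi1 are the most abundant genes, Abca1 the least, and for most genes the points of both groups fall together.

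The comparison asks which of these genes differ when Samd14 is lowered. Of the 36 members, all of which had enough counts to be tested, 1 had an adjusted p under 0.05 by edgeR's quasi-likelihood fit: Pltp, which fell. Over all 12670 genes tested, 2.58% passed, 1.26% lower and 1.32% higher in shSamd14, so the share of members that passed (2.78%) was near that of all genes. None of the sterol and fatty acid enzymes among the 36 passed. Negative differences were more frequent among the members, and all but that of Pltp were small and did not pass. Of the 36 members, 27, or 75.0%, had a negative log2 fold change, against 48.4% of all genes tested. The median log2 fold change was -0.09 over the members and 0.01 over all genes. At an unadjusted p under 0.05 there were 10 members lower and 1 higher, against 7.92% and 7.07% of all genes. The 3 shSamd14 libraries lay wholly below the 3 control libraries for 10 members, or 27.8%, against 10.2% of all genes, and wholly above them for 2 members, or 5.56%, against 10.5% of all genes. In TPM, 8 members lay wholly below, or 22.2%, against 7.30% of all genes, and 1 above. These counts are descriptive, since genes of 1 pathway do not vary independently and the members were chosen with earlier results of these data known. The 33 members other than the efflux genes had fitted folds between 0.844 and 1.06. In simulated data the same test found 39.3% of genes changed by 1.25-fold. Those genes were drawn from all tested genes and given the average spread of genes of like level. The 33 members were more abundant, with a median of 65.7 TPM against 17.4 TPM over all tested genes. The share found may therefore differ for them, and how many small differences were missed cannot be told.

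**Figure D2:**
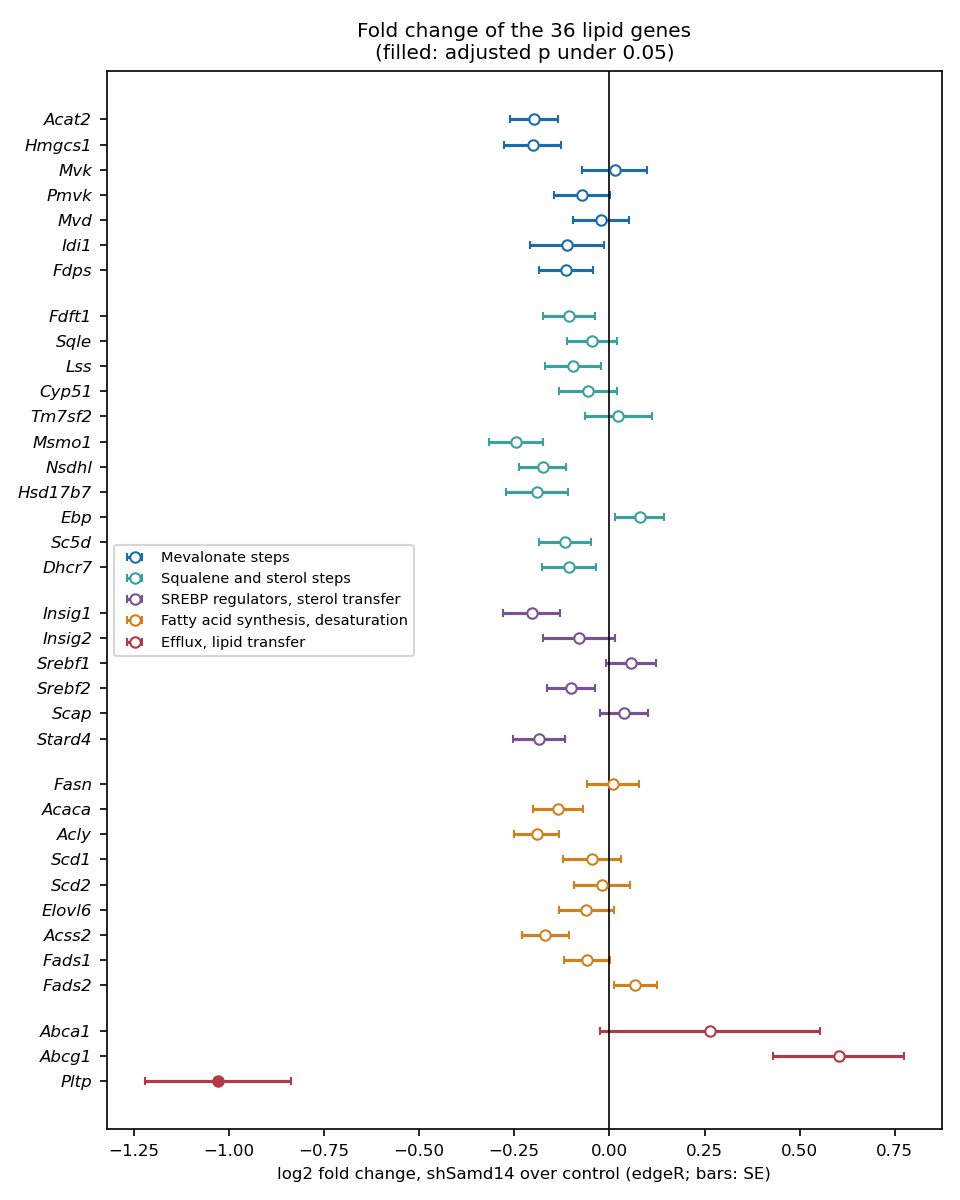
Log2 fold change of shSamd14 over control for the 36 genes, by class, with standard errors from the edgeR fit; filled points have an adjusted p under 0.05. Most synthesis genes sit between -0.25 and 0.10, Abcg1 lies at 0.60 and Pltp, the filled point, at -1.03.

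The mevalonate steps turn acetyl-CoA into the isoprenoid farnesyl diphosphate. Of their 7 genes, 6 had a negative log2 fold change and none passed, with a median of -0.11. Acat2 encodes the acetyl-CoA acetyltransferase that joins the first acetyl units. It had 139, 134 and 121 CPM in shSamd14 replicates 1, 2 and 3, against 151, 153 and 148 CPM in control replicates 1, 2 and 3. All shSamd14 values lay below all control values, and the log2 fold change was -0.20 (SE 0.06, edgeR adjusted p = 0.136). Acat2 shares 39.1% of its 50-base words with the near copy Acat3, which was at 0.423 TPM over all libraries, against 108 TPM for Acat2, and the way reads were divided between them was not tested. Hmgcs1, the HMG-CoA synthase gene, had 241, 253 and 207 CPM in shSamd14 libraries, against 277, 273 and 255 CPM in control libraries. The groups did not overlap, although the gap between 253 and 255 CPM was narrow, and the log2 fold change was -0.20 (SE 0.07, adjusted p = 0.199). In TPM they did overlap, at up to 132 TPM in shSamd14 and down to 129 TPM in control libraries, and without shSamd14 replicate 3 the log2 fold change was -0.12. Fdps, which makes farnesyl diphosphate, had 339, 319 and 289.6 CPM in shSamd14 libraries, against 324, 338 and 363 CPM in control libraries. Its groups overlapped in CPM, though not in TPM, with the lowest value in shSamd14 replicate 3 (log2 fold change -0.11, SE 0.07, adjusted p = 0.497). For Idi1 the spread within shSamd14 (625 ± 92.0 CPM) exceeded the difference from control (675 ± 40.0 CPM). The kinases Mvk and Pmvk and the decarboxylase Mvd, which act between HMG-CoA reduction and isopentenyl diphosphate, had log2 fold changes of 0.01, -0.07 and -0.02, each within its SE of 0.07 to 0.09.

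From 2 farnesyl units the squalene and sterol enzymes build squalene, close it to lanosterol and trim lanosterol to cholesterol. Of these 11 genes, 9 had a negative log2 fold change and none passed, with a median of -0.11. The 3 most negative values belonged to Msmo1, Nsdhl and Hsd17b7, whose enzymes work together to remove the paired methyl groups of the sterol ring. Msmo1 encodes the methylsterol monooxygenase of this demethylation. It had 184, 188 and 157 CPM in shSamd14 replicates 1, 2 and 3, against 219, 205 and 204 CPM in control libraries. The groups did not overlap, and the log2 fold change of -0.24 (SE 0.07) was the most negative of the sterol and fatty acid enzymes among the 36 members, and its edgeR adjusted p was 0.0949. Msmo1 passed with DESeq2 (adjusted p = 0.0424) and with no filter on low counts in edgeR (adjusted p = 0.0353), and in none of the 6 edgeR fits that left out 1 library (adjusted p 0.0954 to 0.308). Nsdhl, the sterol dehydrogenase of the next step, had 70.0, 73.5 and 65.9 CPM in shSamd14 libraries, against 77.8, 80.1 and 78.5 CPM in control libraries. Its control libraries were tightly grouped (78.8 ± 1.15 CPM) and lay above all shSamd14 libraries (log2 fold change -0.18, SE 0.06, adjusted p = 0.183). Hsd17b7, the sterol ketoreductase of the same reaction, had 29.1, 30.5 and 27.9 CPM in shSamd14 libraries, against 36.6, 32.8 and 30.7 CPM in control libraries. The nearest values of the groups, 30.5 and 30.7 CPM, almost touched, and the log2 fold change was -0.19 (SE 0.08, adjusted p = 0.273). In TPM the groups overlapped, at up to 11.4 TPM in shSamd14 and down to 11.0 TPM in control libraries, and without control replicate 1 the log2 fold change was -0.13. The other 8 genes had log2 fold changes between -0.12 for Sc5d, the sterol desaturase gene, and 0.08 for Ebp, the sterol isomerase gene. Among them were the rate-controlling squalene epoxidase gene Sqle (-0.05, SE 0.07), the squalene synthase gene Fdft1 (-0.11, SE 0.07), the lanosterol synthase gene Lss (-0.10, SE 0.07) and the demethylase gene Cyp51 (-0.06, SE 0.08). Dhcr7, whose enzyme makes cholesterol from its immediate precursor, stood at -0.11 (SE 0.07), and the sterol reductase gene Tm7sf2 at 0.02 (SE 0.09). Fdft1 shares 18.3% of its exon bases with Ctsb on the opposite strand and Tm7sf2 12.1% with Vps51 on the same strand, so part of their reads could belong to those genes.

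The sterol genes were lowest in 1 library. In shSamd14 replicate 3 the 18 genes of the mevalonate and sterol steps had a median of -0.24 on the log2 scale relative to the mean of the control libraries. The same median was -0.03 in shSamd14 replicate 1, -0.04 in shSamd14 replicate 2, and 0.01, -0.01 and -0.02 in control replicates 1, 2 and 3. For 14 of the 18 genes shSamd14 replicate 3 was the lowest of the 6 libraries, against 20.3% of all tested genes. Without that library the median log2 fold change was -0.02 for the mevalonate steps and -0.04 for the sterol steps, and 12 of the 18 genes were negative, where 15 were negative with all libraries. Idi1, Sqle and Cyp51 then had log2 fold changes of 0.00, 0.01 and 0.03. The number of members whose groups did not overlap in CPM, shSamd14 below, was again 10 without shSamd14 replicate 3, while the share of all genes was then 15.1%. The 19 glycolysis and hypoxia response genes all had a negative log2 fold change, against 48.4% of all tested genes. Of the 19, 1 gene, Ddit4, fell, where 1.26% of all tested genes fell. The 19 genes also had their lowest sum in shSamd14 replicate 3, with sums of 15209.8, 13954 and 12991 CPM in shSamd14 and 15561, 14815 and 15685 CPM in control libraries. Neutrophil markers summed to 4444 CPM in shSamd14 replicate 3 and to 4279 CPM in control replicate 3. In the other 4 libraries these markers summed to between 2683 and 3160.0 CPM, while the sterol median of control replicate 3 was -0.02. The part of these other genes in the sterol values was not tested.

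**Figure D3:**
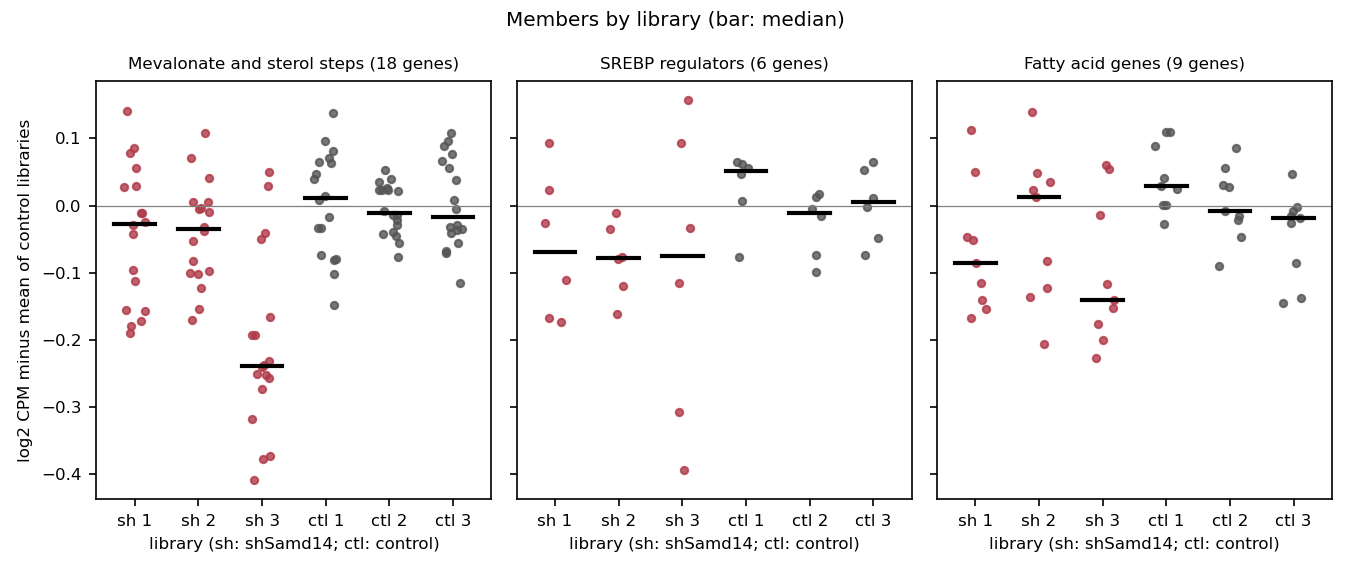
Each point is 1 gene in 1 library, as log2 CPM minus the mean of the 3 control libraries, for the 18 mevalonate and sterol genes, the 6 regulators and the 9 fatty acid genes; bars are medians. In the left panel shSamd14 replicate 3 stands at a median of -0.24, apart from the other 5 libraries. The median of the regulators is near -0.07 in all 3 shSamd14 libraries, but single regulators differ. In shSamd14 replicate 3, Insig1 (-0.39) and Stard4 (-0.31) were low, and Srebf1 (0.16) and Scap (0.09) were above the control mean.

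SREBP acts on promoters together with NF-Y, and the promoters of the pathway were therefore searched for their words. RefSeq promoter windows (GRCm38.p6, 250 bases before to 50 after the annotated start) were listed for 28 of the 36 members; Fdps, Fdft1, Sqle, Stard4, Scd1, Scd2, Fads1 and Abcg1 had none. Both strands were searched for the sterol regulatory element word TCACNCCAC and its longer fixed form, the CCAAT box bound by NF-Y, and the E-box CACGTG. Any match to the longer form also holds the shorter word. CCAAT was found in 22 of the 28 members, or 78.6%, against 41.1% of the 27025 genes with a window. CACGTG was found in 6 members, or 21.4%, against 8.09% of genes, and TCACNCCAC in Hmgcs1 alone, or 3.57%, against 1.44% of genes. The longer form was in no member's window and in 0.0999% of those of all genes. The 27025 genes were not limited to the 12670 tested in these libraries, and shares over tested genes alone were not taken. The windows of 4 members are shown, 5′ to 3′ on the strand of the gene, because they stand for the mevalonate, sterol, regulator and fatty acid classes and the groups of all 4 genes did not overlap in CPM. They are Hmgcs1 (chr13:119690101-119690400, plus strand), Msmo1 (chr8:64733529-64733828, minus strand), Insig1 (chr5:28071162-28071461, plus strand) and Acly (chr11:100527951-100528250, minus strand). Capitals mark every match to the words searched, on either strand, and no 2 matches overlapped in these windows.
Hmgcs1: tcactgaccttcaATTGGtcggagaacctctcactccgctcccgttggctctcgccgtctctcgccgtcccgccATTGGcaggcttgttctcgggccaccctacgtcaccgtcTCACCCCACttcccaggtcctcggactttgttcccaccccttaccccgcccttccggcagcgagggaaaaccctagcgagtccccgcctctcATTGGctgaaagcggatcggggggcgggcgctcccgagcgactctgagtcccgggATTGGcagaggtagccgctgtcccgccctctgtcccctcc
Msmo1: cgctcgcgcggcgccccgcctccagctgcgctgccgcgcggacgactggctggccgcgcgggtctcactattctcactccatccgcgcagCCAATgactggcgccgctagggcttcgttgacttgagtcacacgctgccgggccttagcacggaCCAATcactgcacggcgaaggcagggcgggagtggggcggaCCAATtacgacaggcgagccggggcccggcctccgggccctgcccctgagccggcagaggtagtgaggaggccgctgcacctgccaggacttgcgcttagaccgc
Insig1: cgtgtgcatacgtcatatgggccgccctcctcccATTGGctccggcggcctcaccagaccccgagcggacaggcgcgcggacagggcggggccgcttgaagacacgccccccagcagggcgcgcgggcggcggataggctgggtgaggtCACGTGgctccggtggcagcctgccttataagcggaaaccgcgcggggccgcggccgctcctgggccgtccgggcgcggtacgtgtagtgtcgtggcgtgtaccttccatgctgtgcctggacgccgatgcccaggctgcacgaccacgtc
Acly: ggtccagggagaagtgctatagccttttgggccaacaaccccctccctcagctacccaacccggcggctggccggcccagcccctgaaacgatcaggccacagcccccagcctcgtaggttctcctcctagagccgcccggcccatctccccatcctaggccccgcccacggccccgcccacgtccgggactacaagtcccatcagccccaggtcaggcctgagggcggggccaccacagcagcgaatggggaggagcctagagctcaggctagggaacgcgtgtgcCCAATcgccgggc
Hmgcs1 held 4 CCAAT boxes and, from position -137, the sterol element word. Msmo1 held 3 CCAAT boxes, Insig1 held 1 CCAAT box and 1 E-box, and Acly held 1 CCAAT box, downstream of the start. These matches are letters in a window and do not show binding.

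Among the regulators, none of the 6 passed and 4 had a negative log2 fold change. Insig1, whose protein retains SCAP and SREBP in the endoplasmic reticulum, had 116, 115 and 95.3 CPM in shSamd14 libraries, against 131, 124 and 121 CPM in control libraries. All shSamd14 values were below all control values (log2 fold change -0.20, SE 0.08, edgeR adjusted p = 0.200), and without shSamd14 replicate 3 the log2 fold change was -0.12. Its paralog Insig2 had 13.1, 14.3 and 14.3 CPM in shSamd14 libraries, against 13.9, 14.8 and 15.4 CPM in control libraries, which overlapped (log2 fold change -0.08, SE 0.09, adjusted p = 0.749). Stard4, a carrier that moves cholesterol between membranes and an SREBP target, had 216, 231 and 197 CPM in shSamd14 libraries, against 254, 247 and 232 CPM in control libraries. The groups did not overlap in CPM, with 231 and 232 CPM as the nearest values (log2 fold change -0.19, SE 0.07, adjusted p = 0.196). In TPM they overlapped, at up to 89.0 TPM in shSamd14 and down to 85.9 TPM in control libraries, and limma on log2(TPM + 1) gave -0.10 (adjusted p = 0.521). For the factors themselves the groups overlapped. Srebf2, the main driver of the sterol enzymes, had 252, 229 and 236 CPM in shSamd14 libraries, against 268, 244 and 258 CPM in control libraries (log2 fold change -0.10, SE 0.06, adjusted p = 0.491). Srebf1, whose products act more on fatty acid genes, had 116, 113 and 127 CPM in shSamd14 libraries, against 118, 106 and 118 CPM in control libraries (log2 fold change 0.06, SE 0.07, adjusted p = 0.749). The shSamd14 replicate 3 library, lowest for most sterol enzymes, was the highest library for Srebf1. Scap had 101 ± 6.72 CPM in shSamd14 and 98.5 ± 0.440 CPM in control libraries, a log2 fold change of 0.04 whose sign turned to -0.02 on the log2(TPM + 1) scale.

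Of the 9 fatty acid genes, 7 had a negative log2 fold change and none passed, with a median of -0.06. The most negative values belonged to Acly and Acss2, which supply acetyl-CoA. Acly, the ATP citrate lyase gene, which makes cytosolic acetyl-CoA from citrate, had 392, 382 and 383 CPM in shSamd14 libraries, against 432, 449.8 and 439.6 CPM in control libraries. Both groups were tight and well apart, and shSamd14 replicate 3 lay with its group here (log2 fold change -0.19, SE 0.06, edgeR adjusted p = 0.118). Without any 1 library the log2 fold change of Acly stayed between -0.21 and -0.18, and the adjusted p was 0.172 to 0.277. With DESeq2 the adjusted p was 0.0203. Acss2, which makes acetyl-CoA from acetate, had 62.2, 63.6 and 59.2 CPM in shSamd14 libraries, against 69.3, 67.0 and 71.6 CPM in control libraries, without overlap (log2 fold change -0.17, SE 0.06, adjusted p = 0.201). Acaca, the acetyl-CoA carboxylase gene of the committed step, had 156, 157 and 159 CPM in shSamd14 libraries, against 186, 176 and 157 CPM in control libraries. The spread lay in the control libraries, and control replicate 3 fell within the shSamd14 range (log2 fold change -0.13, SE 0.07, adjusted p = 0.363). Fasn, the synthase that builds palmitate, had 428 ± 23.1 CPM in shSamd14 and 426 ± 25.2 CPM in control libraries, a log2 fold change of 0.01 (SE 0.07). Scd2, the desaturase gene of highest level here, had 1399, 1535 and 1469 CPM in shSamd14 libraries, against 1600.5, 1394 and 1465 CPM in control libraries, which overlapped throughout (log2 fold change -0.02, SE 0.07, adjusted p = 0.936). Scd1, the elongase gene Elovl6 and the desaturase gene Fads1 had log2 fold changes of -0.05, -0.06 and -0.06, with SEs of 0.06 to 0.08. Fads2, which starts the making of polyunsaturated fatty acids, had 133, 126 and 128 CPM in shSamd14 libraries, against 126, 122 and 123 CPM in control libraries. It lay just above control without overlap in CPM, but overlapped in TPM (log2 fold change 0.07, SE 0.06, adjusted p = 0.627). The class median was -0.02 without shSamd14 replicate 3, -0.03 without control replicate 1 and -0.10 without shSamd14 replicate 2.

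The efflux genes were the only class with log2 fold changes beyond 0.25 in size, in both directions. Pltp (chr2:164839518-164857711, minus strand, mm10) encodes the phospholipid transfer protein, a secreted protein that moves phospholipids between lipoproteins. It had 1.36, 1.26 and 1.26 CPM in shSamd14 libraries, against 2.51, 2.61 and 2.79 CPM in control libraries. The groups were far apart and each was tight, at 1.29 ± 0.0572 CPM in shSamd14 and 2.64 ± 0.140 CPM in control libraries (SD, n = 3 each). Pltp fell to 0.490 of the control level, a log2 fold change of -1.03 with an SE of 0.19 and an edgeR adjusted p of 0.0102. These values rest on 30 to 34 counts per shSamd14 library and 52 to 67 counts per control library. With 1 library left out the adjusted p was 0.0254 to 0.0642. The call was lost without shSamd14 replicate 2 (log2 fold change -1.01) and with limma on log2(TPM + 0.1) (adjusted p = 0.0551) or on log2(TPM + 1) without a filter (adjusted p = 0.128). In the annotation 495 of the 2562 exon bases of Pltp, or 19.3%, are shared with Ctsa on the opposite strand. Ctsa, a lysosomal protease gene, was at 84.1 TPM over all libraries against 1.95 TPM for Pltp, and the use of strand in counting is not given in the sources used here, so whether their reads were kept apart cannot be told. Ctsa itself had 93.6, 90.7 and 103 CPM in shSamd14 libraries, against 95.1, 93.6 and 101 CPM in control libraries (log2 fold change -0.01, SE 0.07, adjusted p = 0.964).

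Abcg1 (chr17:31057675-31117988, plus strand, mm10), the exporter that hands cholesterol to lipoprotein particles, had 37.5, 39.0 and 43.2 CPM in shSamd14 libraries, against 31.9, 19.4 and 27.6 CPM in control libraries. Every shSamd14 value was above every control value, but the control libraries were spread widely (26.3 ± 6.38 CPM). The fold was 1.52 (log2 fold change 0.60, SE 0.17) and did not pass in edgeR (adjusted p = 0.164). Abcg1 passed with DESeq2 (adjusted p = 0.000918) and in edgeR without control replicate 2, its lowest library (log2 fold change 0.42, adjusted p = 0.0334), where leaving out each library in turn gave adjusted p-values up to 0.347. Abca1, the exporter to lipid-poor apolipoprotein, had 1.04, 1.17 and 2.04 CPM in shSamd14 libraries, against 1.50, 1.05 and 1.04 CPM in control libraries. It overlapped between groups, its only high shSamd14 value came from replicate 3, and its log2 fold change of 0.27 (SE 0.29, adjusted p = 0.725) became -0.11 without that library. Macrophages are rich in efflux genes. The 8 macrophage markers summed to 32.5, 33.0 and 46.8 CPM in shSamd14 and to 40.1, 29.6 and 50.8 CPM in control libraries, with C1qa at 0 and Mrc1, C1qb and Marco at or below 0.30 CPM in every library. Csf1r made up most of each sum, at 19.6, 20.7 and 30.3 CPM in shSamd14 and 22.9, 17.0 and 31.9 CPM in control libraries, followed by Cd68 at 7.29 to 10.2 CPM in shSamd14 and 8.10 to 12.1 CPM in control libraries. Vcam1 lay wholly above control, at 1.04 to 1.70 CPM in shSamd14 and 0.61 to 0.77 CPM in control libraries (log2 fold change 0.94, edgeR adjusted p = 0.0951). The other macrophage markers tested had negative log2 fold changes, at -0.35 for Adgre1, -0.31 for Cd68 and -0.02 for Csf1r. None of the 4 macrophage markers tested passed. Megakaryocyte markers summed to 320.2, 331 and 323 CPM in shSamd14 and to 280.0, 259.8 and 242 CPM in control libraries, and 2 of the 7, Pf4 (log2 fold change 0.43) and Vwf (0.37), rose. Erythroid markers summed to 3119.6 to 3599 CPM in shSamd14 and to 2412 to 3080.3 CPM in control libraries, and 1 of the 9, Car1 (0.53), rose. Over all tested genes 1.32% rose. The part of these cell types in the values of Abcg1 and Pltp was not tested.

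Of 76 further genes of these pathways, 69 were tested, 1 rose and 2 fell, or 4.35%, against 2.58% of all genes, so the count says little about the list. Mbtps2, the site-2 protease gene whose product makes the last cut that frees SREBP from the membrane, fell: it had 35.9, 38.5 and 35.6 CPM in shSamd14 libraries, against 48.9, 46.4 and 42.5 CPM in control libraries. The groups were well apart (log2 fold change -0.33, SE 0.07, edgeR adjusted p = 0.0270). The gene of the site-1 protease, Mbtps1, was at -0.09 on the log2 scale (SE 0.06, adjusted p = 0.491). Hsd17b12, the ketoreductase of fatty acid elongation, fell: it had 118, 122 and 106 CPM in shSamd14 libraries, against 142, 144 and 131 CPM in control libraries (log2 fold change -0.27, SE 0.07, adjusted p = 0.0454). Me1, the cytosolic malic enzyme gene, whose product supplies NADPH for lipid synthesis, rose: it had 6.23, 6.08 and 6.82 CPM in shSamd14 libraries, against 3.77, 3.61 and 4.37 CPM in control libraries. No values overlapped, and the fold was 1.63 (log2 fold change 0.70, SE 0.14, adjusted p = 0.0170). With 1 library left out in turn, Mbtps2 passed in 1 of 6 edgeR fits, Hsd17b12 in 1 and Me1 in 3, and none of the 3 passed in limma on log2(TPM + 1). The LXR genes Nr1h2 and Nr1h3 had log2 fold changes of 0.01 (SE 0.08) and 0.45 (SE 0.34). The median log2 fold change of the 69 genes was 0.02, with 30 of them, or 43.5%, negative, against 48.4% of all genes. By role, 5 of 11 tested precursor and isoprenoid genes were negative, 5 of 7 genes of SREBP processing, 6 of 14 of esterification and uptake, 0 of 6 of LXR and efflux, and 14 of 31 of further fatty acid metabolism.

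**Figure D4:**
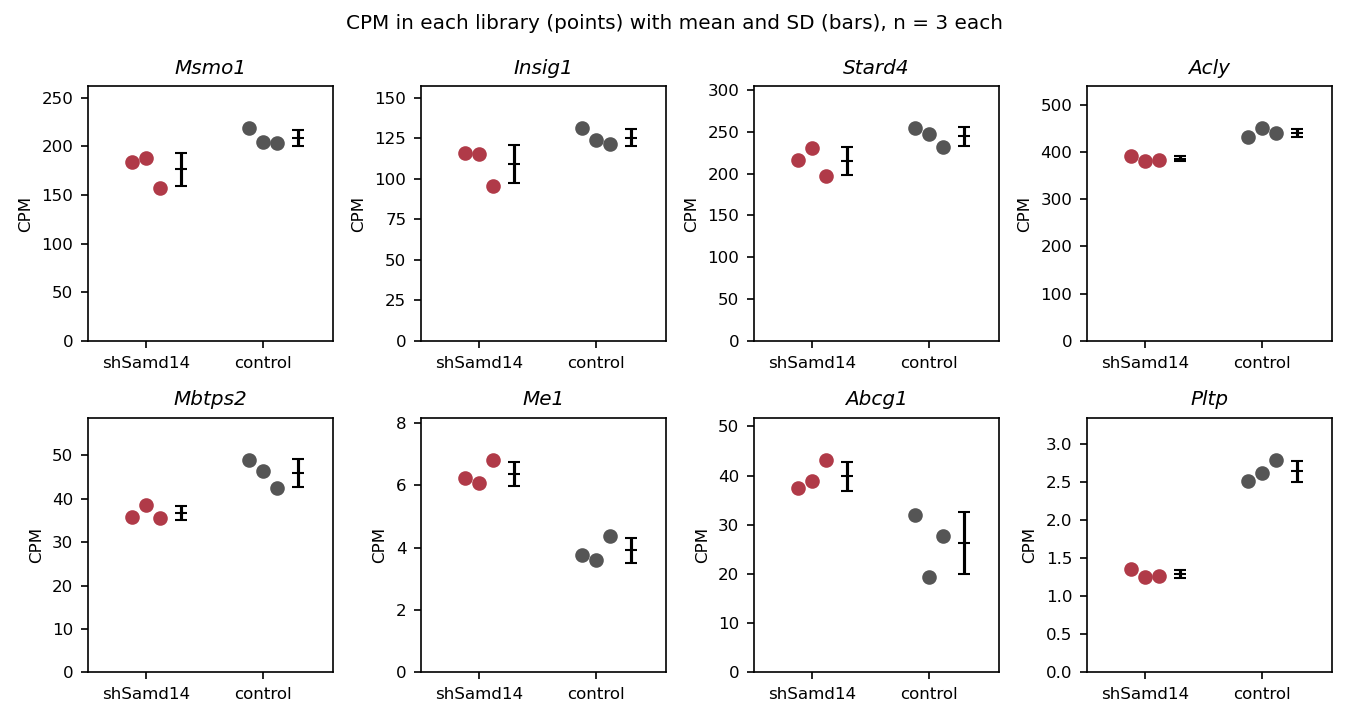
CPM of 8 genes in each library, shSamd14 left and control right, with the mean and SD of 3 libraries as bars and axes from 0. Pltp and Mbtps2 lie lower and Me1 higher in shSamd14, each past the threshold; Msmo1, Insig1, Stard4, Acly and Abcg1 do not overlap in CPM but missed it.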

How the data were processed

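Polyadenylated RNA of 3 shSamd14 and 3 control libraries was sequenced, with groups and replicate numbers taken from the sample titles. RSEM 1.2.15, Bowtie 1.0.1, CASAVA 1.8.2 and mm10 are listed, without roles, in the submitters' processing notes; annotation release, read length and strand use were not stated. The deposited gene tables hold, per the file headers, expected counts (reads that map to several genes are divided between them), TPM and FPKM. FPKM as deposited served only as a check of TPM, with a largest difference of 1.23% after rescaling, over genes of at least 1 TPM. Symbols and coordinates came from GENCODE M21, which named 23580 of the 24376 IDs.

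Expected counts were rounded and fitted with edgeR 4.0.16 (R 4.3.3): filterByExpr (minimum count 10, total 15), TMM factors, robust quasi-likelihood test, two-sided, Benjamini-Hochberg adjustment over all 12670 genes, threshold 0.05. Each SE was taken as the size of the log2 fold change over the root of F. At these depths 3 counts are 0.113 to 0.146 CPM. On data simulated for this comparison the fit found 39.3%, 69.2% and 93.9% of genes changed by 1.25-, 1.5- and 2-fold, and 6.05% of its calls were unchanged genes. Within groups, pairs of libraries had a chi-square of 5.74 to 12.3 per gene, above sampling noise, so none was counted as a duplicate. Other settings were RLE and upper quartile factors, other filters, DESeq2 1.42.0, limma 3.58.1 on log2(TPM + 1) and log2(TPM + 0.1), a replicate block, and leaving out each library.

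The members, classes, further pathway genes and marker lists were chosen with earlier results of these data known. Library values were given for members past the threshold, the 3 of smallest p and the most abundant of each class, both Srebf and both Insig genes, and for Fads2, added after its value was seen. Megakaryocyte, erythroid, macrophage, hepatocyte, mast and neutrophil markers were summed; mast cell markers came to 37.4 to 43.7 CPM in shSamd14 and 36.6 to 41.7 CPM in control libraries.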

Additional observations from a re-analysis of the deposited data

How the results depend on the processing

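Among the 36 members, the sterol and fatty acid enzymes called by any other setting were Msmo1 and Acly. Members passing lower numbered 1 with all libraries in edgeR, 2 with no filter on low counts, 3 with DESeq2, 2 with the replicate block, and 0 with limma on log2(TPM + 0.1) and on unfiltered log2(TPM + 1); members passing higher numbered 0, against 1 (Abcg1) with DESeq2 and with the replicate block. With 1 library left out these counts were 0 to 1 in either direction. Over all genes 327 passed, against 136, 130 and 16 in limma on log2(TPM + 1), log2(TPM + 0.1) and unfiltered log2(TPM + 1), 682 with the replicate block, and 128 to 283 with 1 library left out (128 without shSamd14 replicate 2, 153 without control replicate 1). The replicate numbers shared by both groups were not taken as a pairing. Deviations of same-numbered libraries had correlations of -0.0723, 0.153 and 0.272 for replicates 1, 2 and 3. The replicate 3 libraries correlated best with each other, and shSamd14 replicate 2 correlated best with control replicate 2. Control replicate 2, however, correlated best with shSamd14 replicate 1 (0.177), and the replicate 1 libraries did not correlate best with each other. Under the replicate block Msmo1 had an adjusted p of 0.0191 and Abcg1 of 0.00885.

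With 1 library left out, the median log2 fold change was -0.161 to -0.0166 for mevalonate steps, -0.146 to -0.0422 for sterol steps, -0.106 to -0.0781 for regulators, -0.104 to -0.0231 for fatty acid genes and -0.106 to 0.446 for the efflux genes, which had -0.118 in limma on log2(TPM + 0.1). Members whose groups did not overlap numbered 10 to 14 below and 2 to 4 above, and 8 below and 1 above in TPM in place of CPM (alternatives added after seeing the data). Scap turned to -0.0212 in limma on log2(TPM + 1), filtered or not, and to -0.0216 on log2(TPM + 0.1). With 1 library left out the sign turned for Mvk (-0.0601 to 0.063), Mvd (-0.0822 to 0.0207), Idi1 (-0.195 to 0.00103), Sqle (-0.0922 to 0.00761), Cyp51 (-0.124 to 0.0255), Tm7sf2 (-0.00021 to 0.0566), Fasn (-0.0401 to 0.0521), Scd1 (-0.147 to 0.0134), Scd2 (-0.0633 to 0.0329) and Abca1 (-0.106 to 0.446), none of them past the threshold. Depth limits Abca1 and Pltp, which rest on 24 to 67 counts per library.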
